A study of Rattus norvegicus with 6 samples.

Results

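The genes described here encode the enzymes that attach ubiquitin to proteins and those that take it off again: the activating enzymes (E1), the conjugating enzymes (E2), the ubiquitin-specific proteases (USP) and the ubiquitin C-terminal hydrolases (UCH). They were chosen by name, with earlier results of these data known. The rule took every probe set whose single annotation symbol starts with Ube2, with Uba and a digit, with Usp and a digit, or with Uch. That gave 88 probe sets for 66 genes, of 10411 genes named on the array: 4 E1, 27 E2, 33 USP and 2 UCH genes. Each gene was read at its brightest probe set by mean signal over the 6 arrays, and 47 of the 66 genes had 1 probe set. Total RNA came from the left ventricle of 3 diabetic rats and 3 normal rats, with 1 Affymetrix array per heart. The labels give no strain, sex, age or genotype for either group, and they do not say how diabetes was produced or how long it had lasted.

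Ubiquitin is a small protein that is joined to lysines of other proteins. An E1 enzyme activates it, an E2 enzyme carries it, and an E3 ligase guides its transfer to the chosen protein, where chains of ubiquitin can send that protein to the proteasome or change its location or partners. Deubiquitinases such as the USP and UCH proteases remove or trim ubiquitin. Related modifiers, among them SUMO, NEDD8 and ISG15, use E1 and E2 enzymes of their own. In striated muscle this system is known for the breakdown of contractile proteins during wasting.

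The members' transcripts differed little between diabetic and normal ventricles. Of the 66 genes, 60 had a signal high enough to be tested, and 1 of these 60, the nucleolar deubiquitinase Usp36, rose in diabetic hearts. None of the 60 fell in the limma test, although 4 (6.67%, against 10.3% of all tested probe sets) were lower at an unadjusted p under 0.05. The call is an adjusted p under 0.05 by limma with Benjamini-Hochberg adjustment over all 9519 tested probe sets, of which 2.88% passed (1.5% higher and 1.38% lower in diabetic hearts). At 1.67%, the members' share lay below that background, and with 60 genes it rests on a single gene.

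The differences clustered close to 0 on the scale of log2(signal + 16), which is used for every difference below, always diabetic minus normal. Their median was -0.01, with the middle 50% between -0.18 and 0.17, against a median of -0.01 and a middle 50% of -0.21 to 0.19 over all tested probe sets. Exactly 30 of the 60 genes were above 0 and 30 below. An absolute difference above 0.5 was seen for 5 of the 60 members (8.33%) and for 14.1% of all tested probe sets. These values describe the list and are not a test of it.

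**Figure D1:**
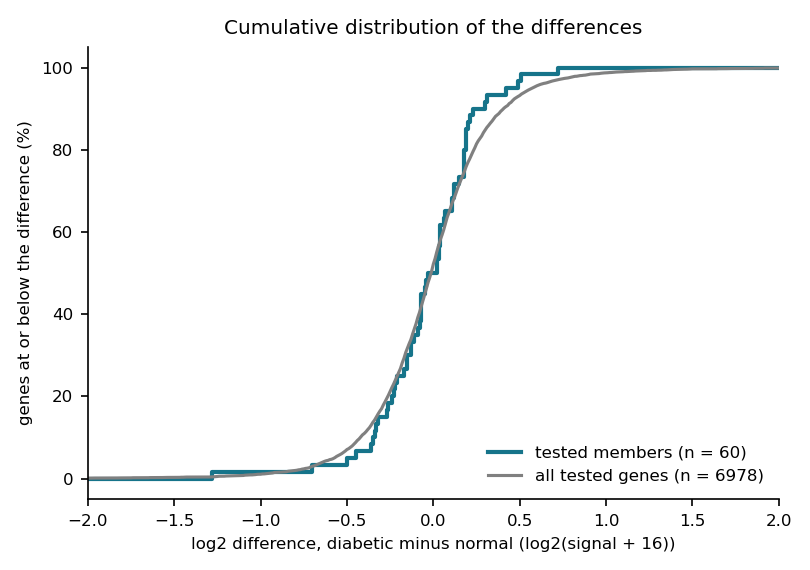
The curves give the percentage of genes at or below each log2 difference (diabetic minus normal), for the 60 tested members and for all 6978 tested genes at their brightest probe set. The curves run close together and cross 50% near 0, with Usp18 at the lower end of the members and Usp36 at the upper end.

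The precision of the array data bounds what could have been missed. The standard error of a member's difference ran from 0.13 to 0.33, with a median of 0.17. For 56 of the 60 members the 95% interval of the difference lay wholly within a 2-fold change in either direction (93.3%, against 87.1% of all tested probe sets). The other 4 were Usp36, Usp18, Ube2l6 and Ube2d1. For those 56 genes a change of more than 2-fold lies outside the interval of the brightest probe set, taken 1 gene at a time. At the second probe set of Usp2 the interval reached 2.004-fold.

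**Figure D2:**
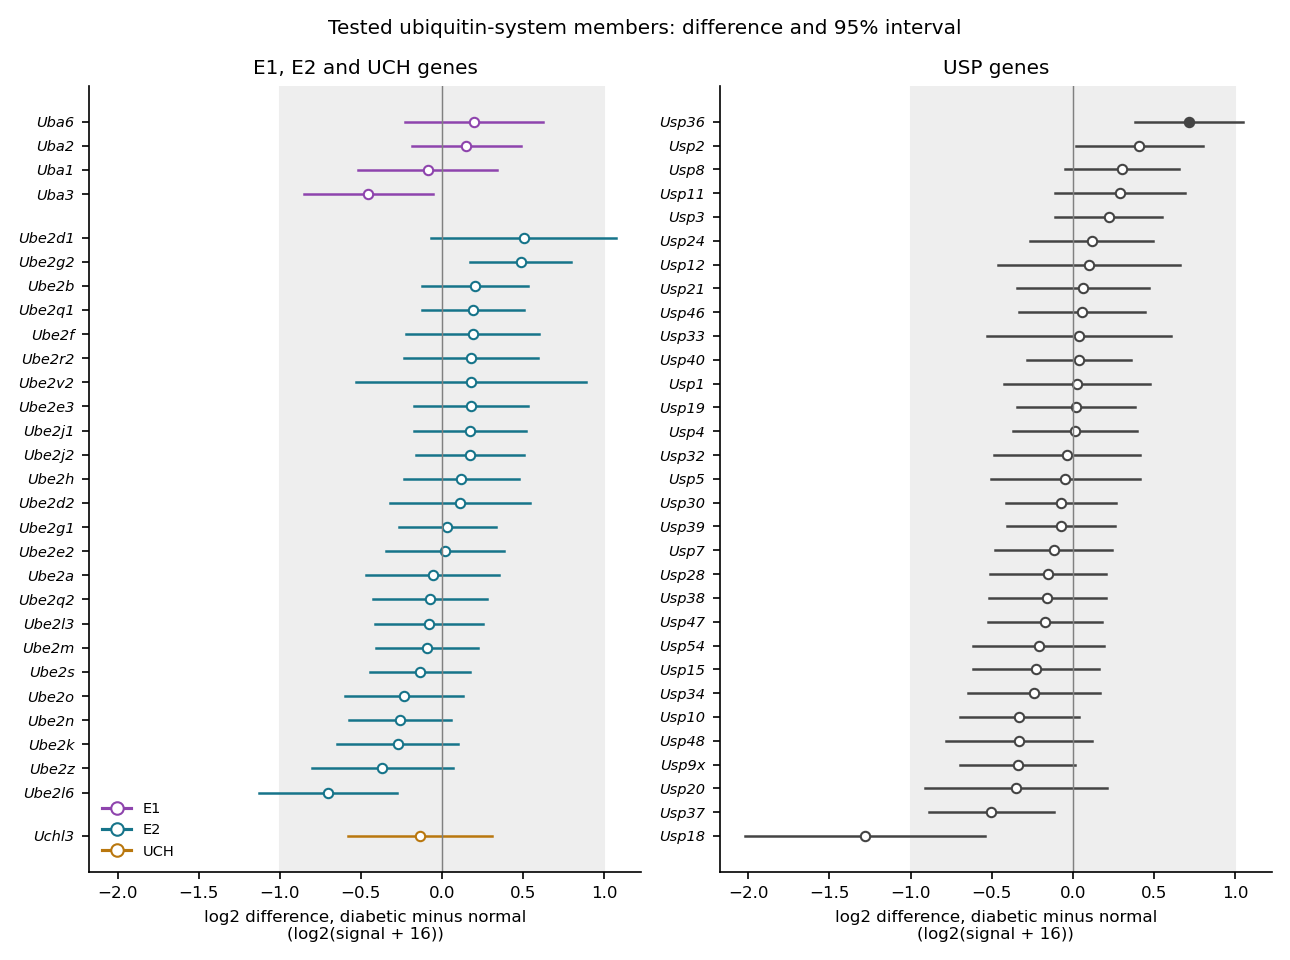
Each row is a tested member, with its log2 difference (diabetic minus normal) as a circle and the 95% interval from limma as a line. The grey band marks 2-fold in either direction, and the only filled circle, for an adjusted p under 0.05, is Usp36 at 0.72.

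Usp36, a deubiquitinase of the nucleolus, had signals of 1453.7, 1208.8 and 1268.4 in the diabetic arrays, against 858.6, 782.8 and 732.0 in the normal arrays. Every diabetic heart was above every normal heart. The means were 1310.3 ± 128 in diabetic and 791 ± 63.7 in normal hearts (SD, n = 3 each), a 1.64-fold rise with a 95% interval of 1.30 to 2.07 (log2 0.72 ± 0.15 SE, limma adjusted p = 0.0396). The size of the rise was stable when arrays were left out, at 0.64 to 0.77, but the call was lost whichever array was left out, with an adjusted p of 0.0698 without normal 1 up to 0.134 without normal 3. Usp36 has a single probe set, so no second one could be set beside it.

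The stretch upstream of Usp36 is shown because it is the only member that passed. These are the 250 bases before the gene's start as RefSeq gives it in the GRCr8 assembly, at chr10:104027493-104027742 on the minus strand. Capitals mark TGACG or its reverse complement CGTCA, the core of the site bound by CREB and ATF factors, which was searched on both strands after the values had been seen.

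Usp36: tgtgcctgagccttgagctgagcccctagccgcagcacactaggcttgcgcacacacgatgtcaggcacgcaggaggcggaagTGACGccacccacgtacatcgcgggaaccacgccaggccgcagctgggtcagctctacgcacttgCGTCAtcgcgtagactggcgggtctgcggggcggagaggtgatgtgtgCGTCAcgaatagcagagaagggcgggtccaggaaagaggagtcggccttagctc

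The window held 3 matches, the first bases of which lie 167, 102 and 54 bases before the start, and no match overlaps another. Of 33469 windows of this length in the RefSeq table, 18.2% held at least 1 match and 0.81% held 3 or more. Among the members, 56 genes had a window; 20 of them had at least 1 match and 3 had 3 or more. A match is a run of letters and says nothing of binding in these hearts.

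Apart from Usp36, the members with the smallest p-values were Usp18 and Ube2l6, both of the ISG15 system. ISG15 is a ubiquitin-like protein made in response to interferon. Ube2l6 is its main E2 enzyme, and Usp18 is the protease that removes it and also damps interferon receptor signalling. Both had lower signals in every diabetic heart than in any normal heart, and neither passed the threshold.

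Usp18 had signals of 370.2, 126.4 and 180.5 in the diabetic arrays, against 432.2, 518.4 and 630.9 in the normal arrays. Diabetic 1 lay close to the normal range and the other diabetic arrays far below it. The difference was -1.28 ± 0.33 (SE; 2.43-fold lower in diabetic hearts, with a 95% interval of 1.45 to 4.06-fold; limma adjusted p = 0.0759), the widest of the 60 in size and also the one with the highest standard error. Without diabetic 1 it was -1.68 and passed (adjusted p = 0.0156), and without diabetic 2 it was -0.96 (adjusted p = 0.176). Ube2l6 had signals of 136.8, 100 and 129.5 in the diabetic arrays, against 177.2, 190.7 and 262.3 in the normal arrays. Its difference was -0.70 ± 0.19 (1.63-fold lower, with a 95% interval of 1.21 to 2.19-fold; adjusted p = 0.0851), and with an array left out it ran from -0.81 to -0.54 without passing.

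Other interferon-responsive genes were read beside them from a list of 34 chosen after these values were seen, of which 21 had a probe set named here and 19 were tested. None passed the limma threshold in either direction. At an unadjusted p under 0.05, 6 were lower (31.6%, against 10.3% of all tested probe sets) and 1 was higher (5.26%, against 9.54%). The higher gene was Ifit1 at 0.97, and the list's median was -0.23. The groups did not overlap for 3 of the 19 (15.8%, against 25.7% of all). Among the lower genes, those with the smallest p-values are given next. The interferon-induced gene Ifi35 was at 168 ± 24.0 in diabetic and 285 ± 33.1 in normal hearts (log2 -0.71, adjusted p = 0.0537), and the membrane protein gene Bst2 at 774.7 ± 236 in diabetic and 1358 ± 93.3 in normal hearts (log2 -0.85, adjusted p = 0.0881). One array moved with this list: 15 of its 21 genes had their lowest signal in diabetic 2, which was also the lowest array for Usp18 and Ube2l6. Without diabetic 2 the list's median was -0.06. The part of that array's state in the differences was not tested beyond leaving it out.

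The 4 activating enzymes showed no change by the limma test, with 1 of them at an unadjusted p under 0.05. Uba1, the main E1 of ubiquitin, had signals of 2823.1, 2482.4 and 1982.1 in the diabetic arrays, against 2113.0, 2954.9 and 2677.8 in the normal arrays, so that the groups overlapped over most of their range (log2 -0.09 ± 0.19, 95% interval -0.52 to 0.34, adjusted p = 0.85). Uba6, the other E1 of ubiquitin, was at 0.20 ± 0.19, and Uba2, of the SUMO-activating pair, at 0.15 ± 0.15. Uba3, the catalytic subunit of the NEDD8-activating enzyme, was the one below the normal range in every diabetic heart, with signals of 782.9, 838.9 and 785.5 against 944.7, 1015.0 and 1405.9 in normal hearts. Its difference of -0.45 ± 0.18 did not pass (adjusted p = 0.196), and without normal 3, the highest normal array, it was -0.28.

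Both E2 genes of the NEDD8 pathway overlapped between the groups. Ube2m, an E2 of NEDD8, averaged 2090.4 ± 114 in diabetic and 2232 ± 141 in normal hearts (log2 -0.09 ± 0.14), and Ube2f, the other NEDD8 E2, was at 0.19 ± 0.18. The modifier's own gene, Nedd8, was at -0.14 ± 0.14 (adjusted p = 0.632). Dcun1d2, a co-factor for attaching NEDD8 to cullins, was lower in every diabetic heart, at 491.2 ± 36.4 in diabetic and 789 ± 83.0 in normal hearts, and just missed the threshold (log2 -0.66 ± 0.15, adjusted p = 0.051). It was the lowest of 21 tested cullins and partners, whose median was -0.05, and the only one at an unadjusted p under 0.05.

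None of the 24 tested E2 genes passed the limma test, with Ube2g2 and Ube2l6 at an unadjusted p under 0.05. Ube2g2 works with ligases of the endoplasmic reticulum membrane in the disposal of misfolded proteins. Its signals were 694.4, 663.4 and 691.9 in the diabetic arrays, against 480.6, 448.9 and 523.6 in the normal arrays, a tight pair of groups with no overlap. That is 1.40-fold higher in diabetic hearts with a 95% interval of 1.13 to 1.74 (log2 0.49 ± 0.14, adjusted p = 0.0966), and with an array left out it ran from 0.43 to 0.54.

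Of the partners of Ube2g2 in that work and other E2s that build degradation chains, none passed or reached an unadjusted p of 0.05. Ube2j2, anchored in the same membrane, was above the normal range in every diabetic heart at 0.17 ± 0.15, and its relative Ube2j1 overlapped at 0.17 ± 0.15. Ube2g1 was at 0.03 ± 0.13 with signals of 1968.2, 1857.8 and 1950.7 in the diabetic arrays and 1896.6, 1893.1 and 1852.1 in the normal arrays. Ube2r2, an E2 of cullin-based ligases, was at 0.18 ± 0.18. Ube2k, which can build chains by itself, was below the normal range in every diabetic heart at -0.27 ± 0.17 (adjusted p = 0.401). With Ube2g2, 5 of these 6 genes were above 0, with a median of 0.17.

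The D and E families of E2, which serve many different ligases, had 4 tested genes, all above 0 and none passing. Ube2d1 had the largest difference among them, at 1288.2, 1137.1 and 621.3 in the diabetic arrays, against 690.6, 630.2 and 722.0 in the normal arrays. Diabetic 3 lay below all the normal arrays and the other diabetic arrays well above them, so its 0.50 ± 0.25 (adjusted p = 0.311) became 0.82 without diabetic 3 (adjusted p = 0.0629) and 0.30 without diabetic 1. Ube2d2 was at 0.11 ± 0.19, Ube2e2 at 0.02 ± 0.16 and Ube2e3 at 0.18 ± 0.15. The D-family genes are close copies of each other, and 5 further probe sets that name several of the E2 genes at once were left out by the selection rule; those of Ube2d2 with Ube2d3 were at -0.22, -0.07 and 0.06.

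Among the remaining E2 genes the differences were small in both directions. Ube2b, which attaches ubiquitin to histones and has been studied in wasting muscle, averaged 4896 ± 476 in diabetic and 4247 ± 224 in normal hearts (log2 0.20 ± 0.14, adjusted p = 0.489), while its near copy Ube2a was at -0.06 ± 0.18. Ube2l3, an E2 for HECT and RBR ligases, was at -0.08 ± 0.15. Ube2n, which builds signalling chains together with Ube2v2, was below the normal range in every diabetic heart at -0.26 ± 0.14 (adjusted p = 0.339), and Ube2v2 was at 0.18 ± 0.31. Ube2z, which takes ubiquitin from Uba6, was also below that range at -0.37 ± 0.19 (adjusted p = 0.327), with normal 2 at 642.1 and the other 5 arrays between 361.6 and 412.0. Without normal 2 it was -0.16. Ube2h, Ube2o and Ube2q2 overlapped at 0.12, -0.23 and -0.07. Ube2s, which lengthens chains for the anaphase-promoting complex, did not overlap either, although its difference was only -0.13 ± 0.14.

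The 31 tested USP genes held the extremes of the set, with Usp36 at the top and Usp18 at the bottom, and the other 29 lay between -0.50 and 0.41. Their median was -0.05, and 14 were above 0. Besides Usp36 and Usp18, only Usp37 and Usp2 had an unadjusted p under 0.05, and neither passed. Usp37, a deubiquitinase of the cell cycle, had signals of 134.4, 173.8 and 130.9 in the diabetic arrays, against 205.0, 250.2 and 186.6 in the normal arrays (log2 -0.50 ± 0.17, adjusted p = 0.15).

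Usp2 is a deubiquitinase whose transcript follows the daily clock in many tissues. It had signals of 1692.8, 1686.0 and 1182.4 in the diabetic arrays, against 1090.4, 1145.6 and 1138.1 in the normal arrays. Diabetic 3 lay just above the narrow normal range, and the other diabetic arrays well above it (log2 0.41 ± 0.17, adjusted p = 0.229, and 0.58 with an adjusted p of 0.125 without diabetic 3). A second probe set gave 994.4, 863.2 and 579.5 in the diabetic arrays and 588.1, 453.0 and 650.4 in the normal arrays, a difference of 0.50 ± 0.22 with overlapping groups. The labels give no time of sampling. Of 14 core clock genes with a named probe set, 11 were tested and 1 passed (9.09%, against 2.88% of all tested probe sets). It was the clock repressor gene Cry2 (log2 0.66 ± 0.14, limma adjusted p = 0.0488). Its adjusted p was not below 0.05 in any of the 6 fits on 5 arrays, and highest, at 0.137, when diabetic 2 was missing. Some clock transcripts varied widely between hearts of the same group, such as Nr1d1 at 479.1, 772.0 and 869.4 in the diabetic arrays and 185.8, 484.1 and 926.7 in the normal arrays. The part of sampling time in the Usp2 values was not tested.

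**Figure D3:**
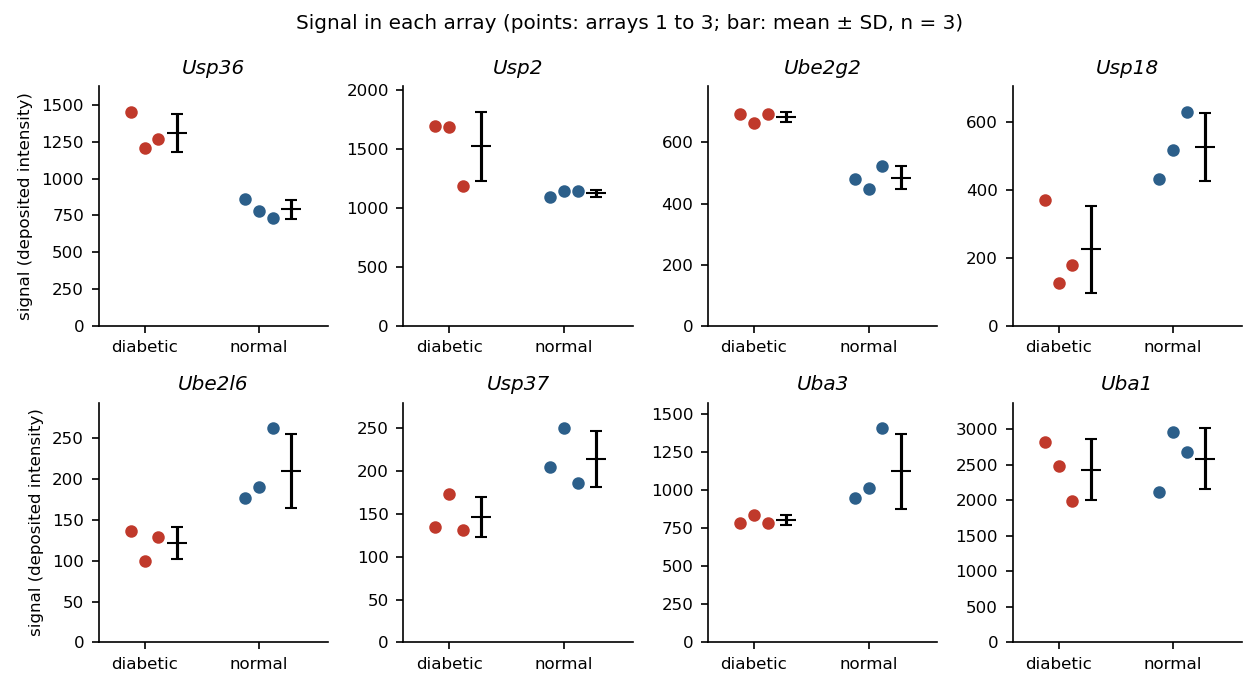
Each panel shows the deposited signal of a member in the 3 diabetic and 3 normal arrays (points, in the order of their numbers) with the mean and SD at the side, on axes that start at 0. The groups do not overlap for Usp36, Usp2, Ube2g2, Usp18, Ube2l6, Usp37 and Uba3, of which only Usp36 passed, and Uba1 overlaps.

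Several other well-known deubiquitinases differed by little. Usp19, which has a form anchored in the endoplasmic reticulum and has been studied in muscle wasting, averaged 509 ± 79.3 in diabetic and 498 ± 38.9 in normal hearts (log2 0.02 ± 0.16, 95% interval -0.34 to 0.39). Usp4 was at 0.01 ± 0.17, Usp5, which recycles free ubiquitin chains, at -0.05 ± 0.20, and Usp7, which acts on the p53 pathway, at -0.12 ± 0.16. Usp30, which opposes Parkin at the outer mitochondrial membrane, was at -0.07 ± 0.15, with 263 ± 31.2 in diabetic and 277 ± 23.0 in normal hearts. Usp8, a deubiquitinase of endosomes, was at 0.30 ± 0.16 (adjusted p = 0.319), with normal 2 above diabetic 2. For the first 5 of these 6 genes the difference was smaller than its standard error.

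Of the 60 tested members, the groups did not overlap for 17 (28.3%), where 25.7% of all tested probe sets did not. The diabetic hearts were above in 7 (11.7%, against 12.1% of all) and below in 10 (16.7%, against 13.6%). Besides those already given, the diabetic arrays were above for the E2 gene Ube2q1 (0.19), for Usp3, a histone deubiquitinase (0.22), and for Usp11 (0.29), and below for Usp9x, a large protease of signalling and protein trafficking (-0.34), and for Usp10, which acts on p53 (-0.33). For Usp11 the margin was slight, with diabetic 2 at 352.2 and normal 2 at 352.0, while diabetic 1 read 527.0. With an array left out, the Usp11 difference fell as low as 0.13. The members' share was near that of the array as a whole. An unadjusted p under 0.05 was reached by 7 members (11.7%), where 19.9% of all tested probe sets reached it; 3 of the 7 were higher in diabetic hearts (5%, against 9.54% of all).

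Where a gene had several tested probe sets, they mostly gave the same sign. That held for 13 of 14 such genes, with gaps between a gene's lowest and highest difference of 0.01 to 0.38 and a median gap of 0.17. The gap was widest for Ube2d1, at 0.50 for the brightest and 0.12 for the other probe set. The exception in sign was Ube2g1, at 0.03 for the brightest and -0.20 for the other, neither near the threshold. Usp47 had -0.17 at its brightest probe set and -0.41 at the other (adjusted p = 0.21), and the 3 probe sets of Usp9x gave -0.34, -0.05 and -0.36. Ube2b had 0.20 at its brightest and 0.31 at its other tested probe set, where every diabetic heart was above every normal heart (adjusted p = 0.287). Ube2l3 had -0.08 at its brightest and -0.28 at the other, where every diabetic heart was below every normal heart (adjusted p = 0.327).

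**Figure D4:**
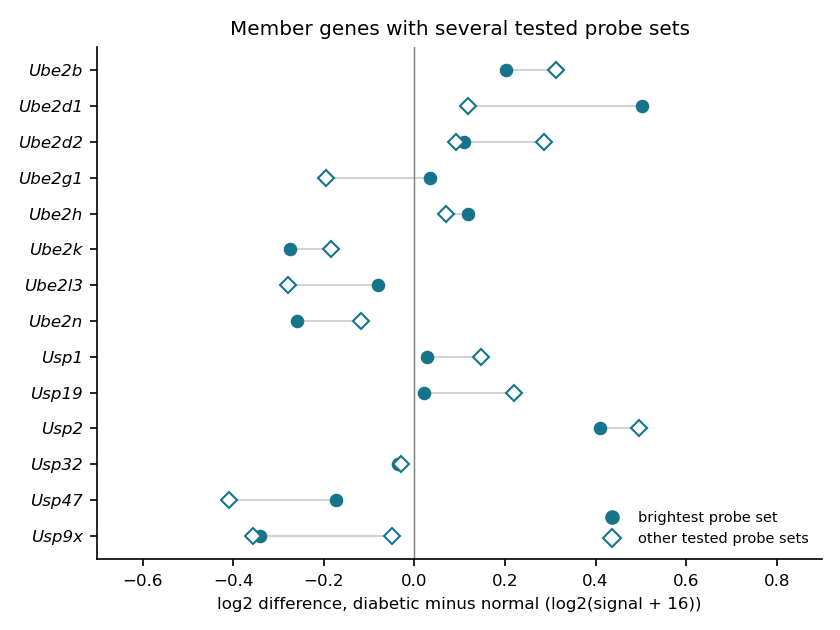
Each row is a member gene with more than 1 tested probe set, with the log2 difference (diabetic minus normal) of the brightest as a filled circle and of the others as open diamonds. Only Ube2g1 has probe sets on both sides of 0, and the widest gap is that of Ube2d1.

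The 6 members that were not tested had mean signals too low for the filter, which was blind to group and lay at a signal of 112.8. They were Uchl1, the UCH enzyme known from neurons, the mitotic E2 Ube2c, the DNA repair E2 Ube2t, the testis-type Ube2d2b, Usp25 and Usp42. Uchl1 read 11.9, 14.6 and 56.2 in the diabetic arrays and 12.6, 33.9 and 6.3 in the normal arrays, a level at which no difference could be measured. All 14 neuron and Schwann cell markers with a named probe set also lay below the filter. Ube2c read 109.3, 54.9 and 9.6 in the diabetic arrays, against 127.0, 148.1 and 139.7 in the normal arrays, so every diabetic heart was lower, without a test. Usp25 read 66.6, 69.2 and 55.6 in the diabetic arrays and 28.3, 7.9 and 57.4 in the normal arrays, and Usp42 read 63.8, 74.6 and 60.7 in the diabetic arrays and 139.6, 145.8 and 60.3 in the normal arrays. The groups overlapped for both. Of 7 proliferation markers 3 were tested and none passed or reached an unadjusted p of 0.05. Uchl3, the other UCH gene, was well measured at 1023.4 ± 237 in diabetic and 1108 ± 108 in normal hearts (log2 -0.14 ± 0.20).

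The other genes of the pathway were read from lists by role. Of 9 ubiquitin-like precursors, 1 rose (11.1%, against 1.5% of all tested probe sets) and none fell. It was Gabarapl1, an autophagy modifier of the Atg8 family, with signals of 3423.9, 2593.0 and 3000.6 in the diabetic arrays, against 1634.2, 1690.6 and 1284.4 in the normal arrays (log2 0.96 ± 0.17, adjusted p = 0.024, lost in 5 of 6 fits with an array left out, at most 0.0837 without normal 3). Without overlap, 4 of the 9 were higher in the diabetic hearts (44.4%, against 12.1% of all) and none lower. Isg15 was not analysed here. Of 7 other activating and conjugating enzymes, 20 other deubiquitinases, 8 proteases of ubiquitin-like modifiers and 21 cullins and partners, none passed in either direction by limma, with 1, 3, 1 and 1 at an unadjusted p under 0.05, and their medians were -0.14, 0.04, 0.00 and -0.05.

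Among the ligases, 1 of 21 HECT and RBR genes rose (4.76%, against 1.5% of all tested probe sets) and none fell. It was Rnf144b, an RBR ligase linked to p53, with signals of 1519.0, 1501.8 and 1564.9 in the diabetic arrays, against 746.3, 685.5 and 588.4 in the normal arrays (log2 1.17 ± 0.15, adjusted p = 0.00641, and at most 0.027 with any 1 array left out). Without overlap, 6 of the 21 were higher in the diabetic hearts (28.6%, against 12.1% of all) and 2 lower (9.52%, against 13.6%). The lowest was Herc2 at -0.65 ± 0.15, which did not pass (limma adjusted p = 0.0556). Of 10 muscle ubiquitin ligases, 1 rose (10%, against 1.5% of all tested probe sets) and none fell. It was Trim63, known as MuRF1, a ligase for sarcomere proteins, with 2120.5 ± 231 in diabetic and 1120 ± 48.9 in normal hearts (log2 0.91 ± 0.15, adjusted p = 0.0158, lost in 4 of 6 fits with an array left out, at most 0.0635 without diabetic 2). That list's median was 0.68. Without overlap, 6 of its 10 genes were higher in the diabetic hearts (60%, against 12.1% of all tested probe sets). Stub1 was lower without overlap (10%, against 13.6% of all). Differences were below 0 for 3 of the 10: Fbxl22 at -0.74, Asb2 at -0.24 and Stub1 at -0.19. The E1, E2, USP and UCH median of -0.01 stands beside the 0.68 as a description, and the difference between the lists was not tested.

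**Figure D5:**
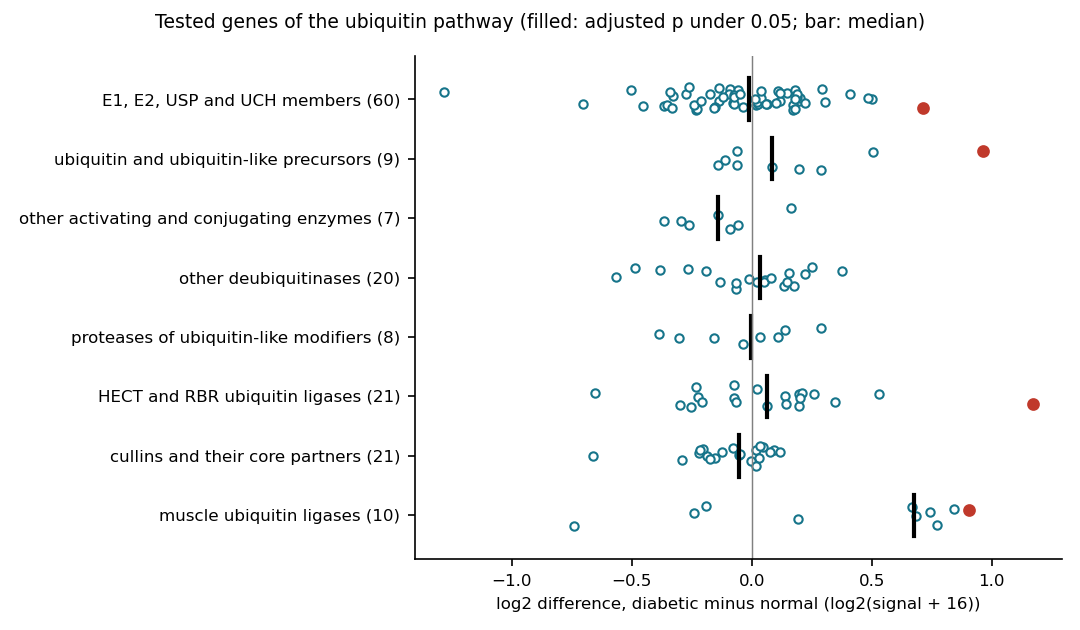
Each point is a tested gene, placed by its log2 difference (diabetic minus normal) and grouped by role, with the number tested in brackets, filled points at an adjusted p under 0.05 and a bar at each median. The medians lie between -0.14 and 0.08 except for the muscle ubiquitin ligases at 0.68, and Usp36, Gabarapl1, Rnf144b and Trim63 are the filled points.

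The arrays as a whole set the frame for these values. The mean after trimming 2% from each end was 500.2 on all 6 arrays, and the array's median member deviated from its mean over arrays by -0.02 to 0.02. The 6 cardiomyocyte markers with a named probe set were tested and none passed, with 1 at an unadjusted p under 0.05, and their summed signal was 139172 to 189381 in diabetic and 155353 to 196328 in normal hearts. Of 7 fibroblast markers, 4 fell (57.1%, against 1.38% of all tested probe sets): Col1a1, Col1a2, Col3a1 and Lum. The other markers of that list, Dcn, Pdgfra and Tcf21, overlapped at -0.01, -0.24 and -0.29 without passing. The fibroblast list's summed signal was 20687 to 21966 in diabetic against 32257 to 37086 in normal hearts. Of 4 atrial markers, 1 rose (25%, against 1.5% of all tested probe sets), Nppa (log2 2.76 ± 0.18, limma adjusted p = 0.00087). The other markers of that list, Myl7, Myl4 and Sln, overlapped at 0.17, 0.43 and 1.64 without passing. Of 5 endothelial markers, 1 fell (20%, against 1.38% of all), the receptor gene Tie1 (log2 -0.94 ± 0.17, limma adjusted p = 0.0222). Pecam1 was above the normal range in every diabetic heart without passing (0.68 ± 0.23, adjusted p = 0.147). The endothelial list's summed signal was 5014 to 5896 in diabetic and 4969 to 5829 in normal hearts. None of the smooth muscle (3), macrophage (4) or erythroid (3) markers tested passed or reached an unadjusted p of 0.05. With an array left out, the call was lost in 3 of 6 fits for Col1a1 and in 4 of 6 for Tie1. The limma adjusted p was highest without normal 3, at 0.0704 for Col1a1 and 0.0811 for Tie1. In bulk tissue, fewer cells of a type and less RNA per cell cannot be told apart, and the part of cell makeup in the members' differences was not tested. The number of arrays limits the precision of every value here.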

How the data were processed

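Left ventricle RNA of 3 diabetic and 3 normal rats was measured on single-colour Affymetrix arrays. The deposited values are linear intensities, 1 for each probe set of an array. Per the labels the protocol was the manufacturer's standard one; the authors' software and normalization were not given in the sources used. The trimmed means were equal, so the deposited intensities were used unscaled. Of 15923 probe sets, 57 controls were left out. Probe sets were named from the platform's annotation, and all 88 member probe sets matched the GRCr8 gene table (names only) by gene number.

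Values were turned into log2(intensity + 16). Probe sets with a mean log2 value above the 40th percentile (9519) were tested with limma 3.58.1 in R 4.3.3, group as the only term, two-sided, with Benjamini-Hochberg adjustment, and the code was tested on simulated data. An exact test of 3 against 3 arrays cannot reach 0.05. Members and lists were chosen with earlier results of these data known. Members named were those called, in each class the 6 with the smallest p, the 2 brightest and the dimmest, genes whose probe sets disagreed in sign with an unadjusted p under 0.05, and a panel of well-studied members; others are named after their values were seen. Genes outside the members were named if called in a list. Named after their values were seen were Nedd8, Dcun1d2, Pecam1, Nr1d1, Ifit1, Ifi35, Bst2, Herc2, Fbxl22, Asb2, Stub1, Dcn, Pdgfra, Tcf21, Myl7, Myl4 and Sln. Lists were described, not tested. Alternatives changed the pseudocount, scaling, filter, eBayes prior, weights, replicate block, arrays, threshold and probe set rule. Figures used matplotlib 3.10.9 in Python 3.11.15.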

Additional observations from a re-analysis of the deposited data

How the results depend on the processing

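The count of changed probe sets, 274 here, was 18 without the dim filter, 437 with the filter at the 60th percentile, 527 with an intensity trend and 674 at a threshold of 0.1, and it ran from 100 to 202 with an array left out. The count of changed members, 1 here, was 2 with a pseudocount of 64, with the filter at the 60th percentile, with an intensity trend and with array weights, where Usp18 joined Usp36. It was 4 at a threshold of 0.1, with Ube2g2 and Ube2l6 added. It was 0 without the dim filter (Usp36 adjusted p = 0.164) and 0 with the replicate number as a block (adjusted p = 0.0669), and 0 to 1 with an array left out. The numbers are not known to pair the hearts: the deviations of same-numbered arrays correlated at 0.066, 0.014 and 0.016. Those of differently numbered arrays correlated at -0.084 to 0.069. The members' median of -0.012 was 0.018 with the filter at the 60th percentile and -0.040 when a gene's probe sets were averaged, and it ran from -0.067 to 0.007 with an array left out. A filter on the mean of the linear signals, chosen after seeing the data, called 245 probe sets and the same member. Among 24 named members, sign changes were limited to differences close to 0: Usp4 was at -0.020 with array weights and Ube2g1 at -0.081 when its probe sets were averaged. With an array left out, Usp4 ran from -0.082 to 0.136, Usp19 from -0.085 to 0.135, Uba1 from -0.225 to 0.050 and Uchl3 from -0.239 to 0.070. Of the 36 other tested members none passed in any of these fits, and 13 changed sign in at least 1 of them. The cause of these changes was not tested. Changing the filter altered both the number of probe sets tested and the set from which the eBayes prior was estimated. Dim members are bounded only by the low end of the signals, since no detection calls were used.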
